A study of Homo sapiens with 21 samples.

Results

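The effect of substituting tyrosines in the EWS part of EWS/FLI was compared between the full-length fusion and a shortened form. For each gene the quantity described is an interaction on the log2 scale, the difference DAF-mut9 minus mut9 less the difference DAF minus WT-EF. It rests on 12 of the 21 RNA-seq libraries, 3 each of WT-EF, DAF, mut9 and DAF-mut9. A negative interaction means that mRNA moved less upward, or further downward, with tyrosine substitution in the shortened form than in the full-length form, and a positive interaction means the reverse.

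All libraries came from A673, an established Ewing sarcoma cell line that carries EWS/FLI. The 4 groups shared an shRNA against the endogenous fusion (iEF), given on day 1, a cDNA in the pMSCV-hygro vector, given on day 5, and selection with 2 µg/ml puromycin and 400 µg/ml hygromycin until day 16. WT-EF is the full-length fusion, and DAF carries alanine for tyrosine in its degenerate hexapeptide repeats. In mut9 most of the EWS part between its first and last segments is deleted, and in DAF-mut9 the repeat tyrosines left in mut9 are also alanine. DAF keeps a later tyrosine-rich stretch intact, so the tyrosines substituted are not the same set in both forms, and the length of the EWS part cannot be told apart from the tyrosines that remained. Columns headed mut9d were read as DAF-mut9. Cells with the control shRNA against luciferase and an empty vector (iLuc), and cells with the fusion shRNA and an empty vector (iEF), show levels with and without the endogenous fusion. The remaining group, del22, had the fusion shRNA and a cDNA that lacks nearly all of the EWS part. It entered the fit of the model but not the interaction. Below, rescued cells, groups and libraries are those of WT-EF, DAF, mut9 and DAF-mut9 only. By the study's account the replicates of the mut9 forms were repeats of the whole knockdown and rescue, all in 1 cell line, so p-values measure the spread between such repeats in A673.

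EWS/FLI joins the disordered, low-complexity start of EWS to the ETS DNA-binding domain of FLI1. The EWS part brings chromatin regulators and RNA polymerase II to DNA, and its tyrosines are needed for the assemblies it forms with itself and with partners. The fusion turns on genes beside GGAA repeats, among them the nuclear receptor gene NR0B1, and lowers others such as IGFBP3, LOX and TGFBR2.

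FLI1 mRNA was read as a check of the knockdown and the rescue, and its gene-level counts mix endogenous transcript with cDNA. It measured 61.3, 60.6 and 89.05 CPM (counts scaled to a common library size) in iLuc and 20.8, 20.02 and 21.1 CPM in iEF. The rescued cells had 21.9, 25.2 and 26.5 CPM with WT-EF, 28.3, 33.4 and 30.4 with mut9, 36.2, 39.8 and 35.1 with DAF, and 34.6, 37.04 and 37.3 with DAF-mut9. WT-EF was only slightly above iEF, mut9 was higher, and DAF and DAF-mut9 were the highest of these. The counts therefore show the knockdown more clearly than the rescue with WT-EF. FLI1 was higher with DAF than with WT-EF (log2 difference 0.60, adjusted p = 0.00115) at the level of the gene. Endogenous transcript and cDNA cannot be told apart in these counts, and the part of this difference in the results was not tested. No interaction was called for FLI1 (-0.36 ± 0.18, adjusted p = 0.384) or EWSR1 (-0.03 ± 0.13, adjusted p = 0.961), where values after ± are standard errors and adjusted p comes from edgeR's quasi-likelihood test unless another tool is named.

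The 21 libraries held 32897083 to 46210348 counts. Among Ewing sarcoma markers in the 12 libraries, CCND1 stood at 1510 to 2600 CPM and STEAP1 at 41.6 to 129 CPM, while CD99 had 0 to 0.0837 CPM. Whether reads of CD99 were lost in alignment or counting was not tested, so its counts do not show that the cells lacked it. Of the markers of other cell types, KRT18 (31.8 to 75.3 CPM) and KRT8 (7.44 to 16.4 CPM) were the highest, CD3E had no count, and 12 of 16 could be tested. CD14, a monocyte surface protein at 0.411 to 3.14 CPM, itself had a negative interaction (log2 -2.75, adjusted p = 0.000249), and its part in other results was not tested.

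Of 30549 genes tested, 943 had an interaction at an adjusted p below 0.05 (3.09% of genes tested). The interaction was negative for 788 (2.58%) and positive for 155 (0.507%), with the same sign in each of the 3 replicate sets for all of them. The sets are the same 12 libraries that gave the calls, so equal signs follow largely from the selection and are no separate support. The median log2 interaction was -1.51 among negative genes and 1.19 among positive genes, against -0.0487 over all genes tested. In the full-length form 7558 genes (24.7%) differed between DAF and WT-EF, 4348 higher (14.2%) and 3210 lower (10.5%). In the shortened form 2923 genes (9.57%) differed between DAF-mut9 and mut9, 1501 higher (4.91%) and 1422 lower (4.65%). Scaling by library totals instead of TMM gave 872 interaction genes with 33% positive, against 16.4%, and moved the median of all genes to 0.065. Leaving out a library gave between 407 genes (without WT-EF replicate 2) and 1102 (without mut9 replicate 2), with 421 without mut9 replicate 1, 482 without DAF-mut9 replicate 1, 550 without WT-EF replicate 3 and 558 without DAF replicate 2.

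**Figure D1:**
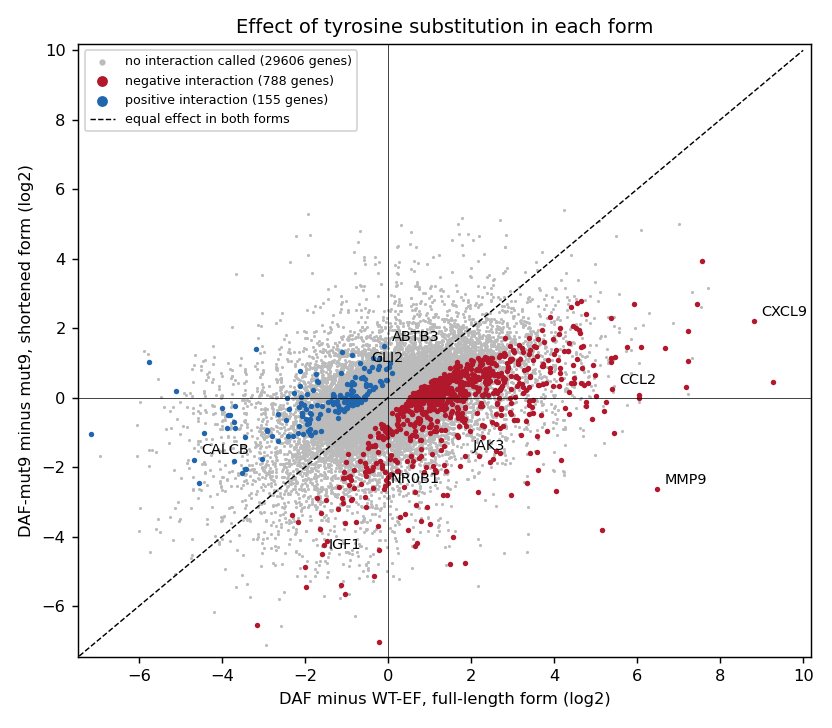
Each point is 1 of 30549 genes, with the log2 difference DAF minus WT-EF on the x axis and DAF-mut9 minus mut9 on the y axis; the dashed line marks equal effects. The 788 genes with a negative interaction (red) lie below the line, most of them to the right of 0, and the 155 with a positive interaction (blue) lie above it.

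Most negative genes were raised by substitution in the full-length form. In 451 of 788 (57.2%) DAF was above WT-EF and no difference was called in the shortened form, and in 152 (19.3%) both forms rose, with medians of 2.15 and 0.862 on the log2 scale. In 415 of the 451 and 151 of the 152 the iLuc mean lay below the iEF mean, so most of these mRNAs were lower where the endogenous fusion was present. In 100 genes (12.7%) only the shortened form was called, and it fell (median -1.71), and in 41 (5.2%) both forms fell, with medians of -1.03 and -2.85. Here iLuc lay above iEF in 78 of 100 and in 41 of 41. The order of iLuc and iEF was not counted over all genes that substitution raised or lowered. These counts are therefore not shown to be particular to genes with an interaction. The other negative genes were 40 (5.08%) called in opposite directions and 4 called in neither form.

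The groups can also be read by length. Among the 788 negative genes, mut9 was above WT-EF in 570 and below it in 1, whereas DAF-mut9 was below DAF in 146 and above it in 0. Among the 155 positive genes, mut9 was below WT-EF in 104 and DAF-mut9 above DAF in 12, with 0 the other way in both contrasts. Over all genes tested, 5.73% differed between mut9 and WT-EF (4.57% higher and 1.17% lower with mut9) and 0.871% between DAF-mut9 and DAF (0.226% higher and 0.645% lower with DAF-mut9). These contrasts use the same 12 libraries as the interaction, so they restate it from the side of length.

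Promoters are shown for CXCL10, CXCL9 and TAP1, genes of the interferon response with a negative interaction. They were picked from the named genes whose windows held a match to a searched motif. Interferon activates genes through the response element whose core was searched as GAAA, any 2 bases and GAAA, and NF-kB binds κB sites, searched as GGGA, any base and TTTCC. Each window runs from 250 bases before to 50 after the RefSeq start (GRCh38.p14), 5′ to 3′ on the strand of the gene, with matches on either strand in capitals. In TAP1 the capitals cover 2 overlapping response element cores and 1 κB match, and in the others 1 response element core. The core also stood in windows of other named genes, such as the peptidase gene TRHDE and the axon guidance gene PLXNC1.
CXCL10, chr4:76023448-76023747, minus strand: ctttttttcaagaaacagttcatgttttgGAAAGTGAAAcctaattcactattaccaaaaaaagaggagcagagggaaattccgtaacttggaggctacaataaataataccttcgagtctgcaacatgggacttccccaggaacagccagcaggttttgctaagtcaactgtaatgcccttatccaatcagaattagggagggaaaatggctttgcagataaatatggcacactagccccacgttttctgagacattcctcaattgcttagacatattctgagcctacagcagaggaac
CXCL9, chr4:76007460-76007759, minus strand: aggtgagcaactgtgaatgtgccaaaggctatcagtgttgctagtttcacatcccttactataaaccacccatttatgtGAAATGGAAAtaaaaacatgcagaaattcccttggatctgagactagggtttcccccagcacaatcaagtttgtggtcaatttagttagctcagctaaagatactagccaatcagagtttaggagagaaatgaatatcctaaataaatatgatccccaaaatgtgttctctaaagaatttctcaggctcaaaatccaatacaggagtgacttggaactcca
TAP1, chr6:32853655-32853954, minus strand: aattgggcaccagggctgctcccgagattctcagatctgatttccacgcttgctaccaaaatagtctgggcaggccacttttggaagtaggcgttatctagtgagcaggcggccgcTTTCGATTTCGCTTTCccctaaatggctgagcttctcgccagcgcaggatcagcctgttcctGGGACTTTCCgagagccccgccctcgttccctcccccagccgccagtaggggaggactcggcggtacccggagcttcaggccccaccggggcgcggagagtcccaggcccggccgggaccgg
The response element core stood in 5.3% of 585 promoters matched to negative genes, 1.85% of 108 matched to positive genes, 3.01% of 15072 matched to tested genes and 3.65% of all 27305. The κB letters stood in 1.2%, 0%, 0.577% and 0.579% of the same sets. The ETS letters CCGGAAGT stood in 3.25%, 7.41%, 6.76% and 4.44%, and 3 copies of GGAA in a row in 0%, 0%, 0.0531% and 0.0623%. These shares describe letters in a short window and were not tested.

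Cytokine and chemokine genes were prominent among the negative genes. Of 42 tested genes for cytokines, chemokines and receptors, 10 were negative (23.8%) and 0 positive (list median -1.69). Over all genes tested, 2.58% were negative and 0.507% positive, and the lists below are to be set against these shares. Protein-coding genes made up 89.3% of called genes but 53.7% of tested genes. The shares over all genes are therefore low for lists of protein-coding genes. CCL2, a chemokine that attracts monocytes, measured 14.8, 18.6 and 8.28 CPM with WT-EF, 420.4, 85.97 and 222 with mut9, 384, 884 and 499 with DAF, and 198, 367 and 375 with DAF-mut9. The WT-EF libraries were the lowest, and mut9 overlapped with both substituted forms. DAF exceeded WT-EF by 5.39 on the log2 scale and DAF-mut9 exceeded mut9 by 0.25, an interaction of -5.13 ± 0.85, adjusted p = 0.00561. mut9 replicate 2 was the lowest of its group, and without it the interaction was -5.68 (adjusted p = 0.00018).

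CXCL10, CXCL9 and IDO1 were named for the size of their interactions and are not among the list members counted above. CXCL10, an interferon-induced chemokine for T cells, had 1.06, 2.13 and 1.11 CPM with WT-EF, 29.2, 3.49 and 18.2 with mut9, 29.9, 81.9 and 33.8 with DAF, and 13.02, 27.5 and 22.3 with DAF-mut9. WT-EF lay below and DAF above the other forms, and mut9 and DAF-mut9 overlapped (-4.96 ± 1.06, adjusted p = 0.0236). Its relative CXCL9 had 2, 1 and 1 counts with WT-EF, 50, 16 and 36 with mut9, 301, 1028 and 385 with DAF, and 77, 283 and 197 with DAF-mut9. With WT-EF at or under 3 counts, the fitted interaction of CXCL9 depends on the prior count, and the counts are the measurement. IDO1, which degrades tryptophan and is also induced by interferon, had 1, 4 and 4 counts with WT-EF, 78, 22 and 26 with mut9, 511, 484 and 326 with DAF, and 194, 347 and 252 with DAF-mut9 (-4.75 ± 0.92, adjusted p = 0.0108). In CXCL9 the counts of none of the 4 groups overlapped, in the order WT-EF, mut9, DAF-mut9 and DAF, and in IDO1 those of DAF and DAF-mut9 overlapped above mut9 and WT-EF.

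IL1B, an inflammatory cytokine, had 9.37, 10.3 and 9.7996 CPM with WT-EF, 93.9, 23.6 and 105 with mut9, 97.9, 488 and 205 with DAF, and 84.2, 138 and 216 with DAF-mut9 (-3.80 ± 0.85, adjusted p = 0.031). WT-EF was apart below, and the other forms overlapped with each other. LIF, a cytokine of the interleukin-6 family (-3.00 ± 0.72, adjusted p = 0.0427), and TNFSF15, a TNF family ligand (-2.14 ± 0.52, adjusted p = 0.0446), were also negative. The call of CXCL10 was lost in 8 of the 12 fits that left out a library (adjusted p up to 0.0905), that of IL1B in 9 (up to 0.115), that of LIF in 11 (up to 0.154) and that of TNFSF15 in 10 (up to 0.149). Their log2 interactions in those 12 fits were -5.63 to -4.09 for CXCL10, -4.26 to -2.85 for IL1B, -3.49 to -2.58 for LIF and -2.43 to -1.57 for TNFSF15. CXCL9 and IDO1 lost it in 1 of those fits each, CXCL9 without WT-EF replicate 2 (0.0634) and IDO1 without WT-EF replicate 2 (0.0656). Limma on ComBat-adjusted values also did not call CXCL9 (adjusted p = 0.153), IDO1 (adjusted p = 0.09015) or CXCL10 (adjusted p = 0.0542). In the fit to the 12 libraries alone CXCL10 (adjusted p = 0.08475), IL1B (0.114), LIF (0.0969) and TNFSF15 (0.11) were not called.

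Other large negative interactions fell on enzymes and secreted proteins. NNMT, which methylates nicotinamide, had 1.37, 1.45 and 1.08 CPM with WT-EF, 19.6, 14.8 and 10.5 with mut9, 51.6, 83.8 and 73.3 with DAF, and 39.8, 58.6 and 31.1 with DAF-mut9 (-4.31 ± 0.69, adjusted p = 0.00428). SERPINB4, a protease inhibitor of squamous epithelium, had 10, 2 and 7 counts with WT-EF, 447, 99 and 85 with mut9, 504, 395 and 193 with DAF, and 226, 174 and 150 with DAF-mut9 (-5.96 ± 0.97, adjusted p = 0.00389). WT-EF was apart below in both, while mut9 overlapped with the substituted forms in SERPINB4 but not in NNMT. IL4I1, an amino acid oxidase of immune cells (-5.00 ± 1.05, adjusted p = 0.0209), and C2CD4A (-4.27 ± 1.02, adjusted p = 0.0419) lost their calls in 8 and 10 of 12 fits (up to 0.0872 and 0.157). IL4I1 overlaps NUP62, so its counts are uncertain.

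NF-kB is the transcription factor that inflammatory signals release into the nucleus. Of 25 tested genes of its pathway and targets, 5 were negative and 0 positive (median -1.39). All 25 fitted interactions were below 0 with TMM, and 24 with RLE or library totals. ICAM1, an adhesion protein for leukocytes, had 9.85, 18.7 and 6.85 CPM with WT-EF, 138, 43.7 and 102 with mut9, 74.9, 277 and 128 with DAF, and 35.9, 74.99 and 116 with DAF-mut9 (-4.19 ± 0.87, adjusted p = 0.021). WT-EF was apart below and the other 3 forms overlapped. RELB, an NF-kB subunit (-2.16 ± 0.48, adjusted p = 0.0243), and BCL3, a nuclear cofactor of NF-kB (-2.13 ± 0.31, adjusted p = 0.000227), were also negative. Leaving out a library ended the call of ICAM1 in 8 of 12 fits (up to 0.0762), that of RELB in 8 (up to 0.0871) and that of BCL3 in 0. The fit to the 12 libraries alone did not call ICAM1 (adjusted p = 0.07915) or RELB (adjusted p = 0.07875).

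Interferon-stimulated genes encode antiviral proteins. Of 40 tested, 6 were negative and 0 positive (median -1.13). SAMD9L, an antiviral factor, had 16.7, 13.9 and 10.7 CPM with WT-EF, 131, 53.7 and 91.1 with mut9, 259, 324 and 242 with DAF, and 219, 230.2 and 241 with DAF-mut9 (-3.00 ± 0.36, adjusted p = 0.000283). None of the 4 groups overlapped, in the order WT-EF, mut9, DAF-mut9 and DAF. Its neighbour SAMD9 (-2.04 ± 0.36, adjusted p = 0.00643) and the guanylate-binding protein genes GBP1 (-1.88 ± 0.37, adjusted p = 0.012) and GBP2 (-2.85 ± 0.62, adjusted p = 0.0256) were also negative. GBP1 lost its call without WT-EF replicate 2 (0.0602), and GBP2 in 8 of 12 fits (up to 0.105). Outside that list, APOL3, an interferon-induced lipid-binding protein, had 1.63, 1.89 and 0.737 CPM with WT-EF, 28.2, 12.3 and 18.6 with mut9, 63.6, 135 and 97.2 with DAF, and 40.2, 55.9 and 76.4 with DAF-mut9 (-4.63 ± 0.76, adjusted p = 0.00541). Again WT-EF was lowest and mut9 next, and the substituted forms overlapped.

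MHC class I molecules show peptides at the cell surface, and TAP1 and TAPBP help to load them. Of 18 tested genes, 6 were negative and 0 positive (median -1.04), and all 18 fitted values were below 0 with TMM, RLE and library totals. TAP1, a subunit of the peptide transporter, had 28.6, 26.9 and 18.96 CPM with WT-EF, 103, 49.5 and 68.5 with mut9, 116, 152 and 154 with DAF, and 109, 129.5 and 140.2 with DAF-mut9 (-1.74 ± 0.36, adjusted p = 0.0171). WT-EF was apart below, mut9 lay between, and the substituted forms overlapped above. TAPBP (-1.45 ± 0.21, adjusted p = 0.000319), HLA-C (-1.46 ± 0.32, adjusted p = 0.0183) and HLA-E (-1.33 ± 0.21, adjusted p = 0.000911) were negative as well. TAP1 lost its call in 4 of 12 fits (up to 0.0657) and HLA-C in 6 (up to 0.0667). The fit to the 12 libraries alone called neither (TAP1 adjusted p = 0.0754, HLA-C adjusted p = 0.0833). HLA genes are close copies, and TAP1 and TAPBP overlap antisense genes, so their counts are uncertain where reads were shared.

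Complement is a blood protease cascade that marks cells for removal. Of 16 tested genes, 4 were negative and 0 positive (median -1.44, or -1.17 over the 15 genes above 3 counts in every group). CFI, a protease that inactivates complement, had 11.3, 10.5 and 9.58 CPM with WT-EF, 61.2, 80.1 and 52.8 with mut9, 65.5, 70.4 and 70.8 with DAF, and 46.9, 63.4 and 44.04 with DAF-mut9 (-3.05 ± 0.46, adjusted p = 0.00222). WT-EF was far below the other forms, of which mut9 overlapped with both substituted forms. CD59, which protects cells from complement, was negative (-1.17 ± 0.19, adjusted p = 0.000648; adjusted p = 0.0952 in the limma fit to ComBat-adjusted values). The protease gene C1S (-4.23 ± 0.90, adjusted p = 0.0232) lost its call in 9 of 12 fits (up to 0.1).

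**Figure D2:**
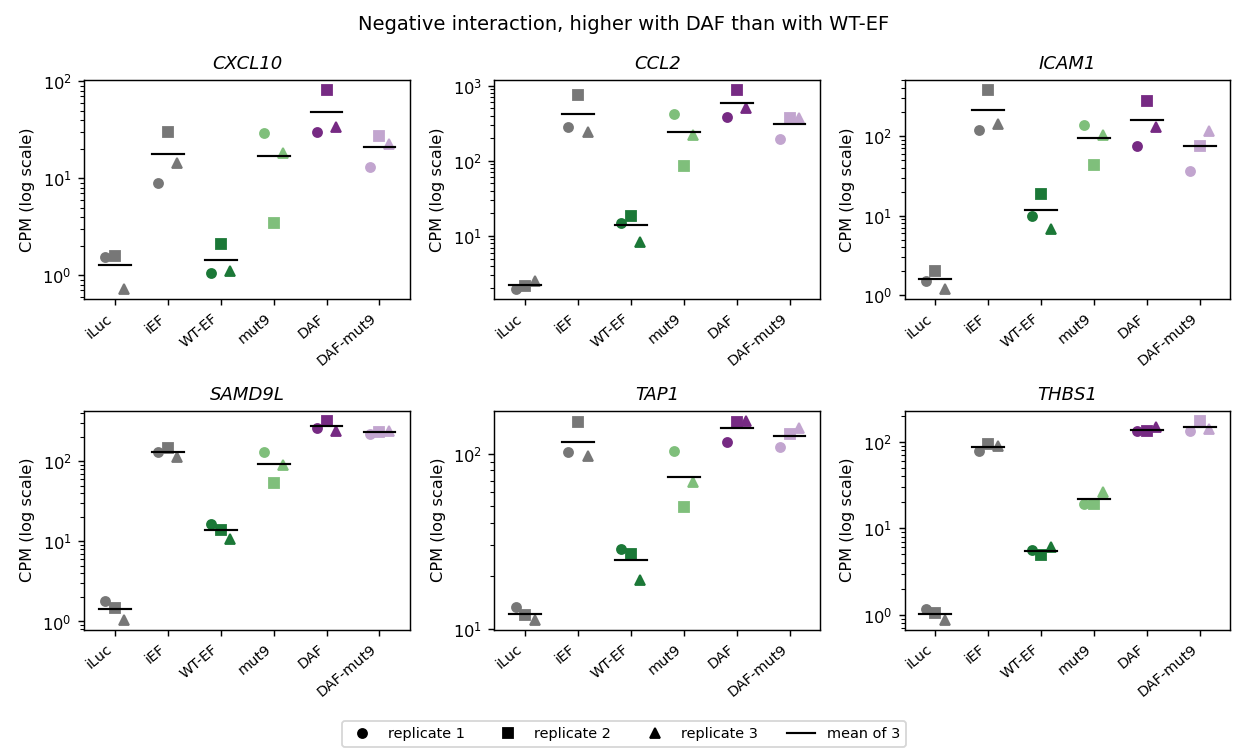
CPM on a log scale in each library of 6 groups for 6 genes with a negative interaction; symbols mark replicates and bars the mean of 3. WT-EF libraries are the lowest of the rescued groups in every panel, and the step from WT-EF to DAF is larger on this scale than that from mut9 to DAF-mut9.

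Extracellular matrix and adhesion genes also carried many negative calls. Of 52 tested genes for matrix glycoproteins and crosslinking enzymes 10 were negative (median -0.531), of 37 for integrins and adhesion 11 (median -0.387), of 34 collagens 3 (median -0.366) and of 42 for proteases and inhibitors of matrix turnover 5 (median -0.868), with 0 positive in each. THBS1, a matrix glycoprotein listed as a repressed target of the fusion, had 5.55, 4.86 and 6.14 CPM with WT-EF, 19.2, 19.2 and 26.4 with mut9, 134, 132 and 148 with DAF, and 132, 176 and 140.3 with DAF-mut9. WT-EF was lowest and mut9 next, and the substituted forms overlapped. The substitution raised THBS1 by 4.64 in the full-length and by 2.79 in the shortened form (-1.85 ± 0.19, adjusted p = 3.06e-06), a call that limma did not make on ComBat-adjusted values (adjusted p = 0.668).

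ELN, which encodes elastin, had 8.79, 10.1 and 12.5 CPM with WT-EF, 21.7, 27.03 and 25.2 with mut9, 54.8, 42.8 and 53.4 with DAF, and 25.6, 27.4 and 24.8 with DAF-mut9 (-2.20 ± 0.28, adjusted p = 0.000114). WT-EF lay below and DAF above all other rescued libraries, and mut9 overlapped with DAF-mut9. SPARC, a collagen-binding protein, ranged over 471 to 524 CPM with WT-EF, 899.7 to 1163 with mut9, 1162 to 1217 with DAF, and 849.7 to 1253 with DAF-mut9 (-1.27 ± 0.19, adjusted p = 0.000242), with WT-EF apart below. CTSL, a lysosomal protease, ranged over 21.5 to 31.6 CPM with WT-EF, 60.7 to 79.002 with mut9, 132 to 146 with DAF, and 108 to 124 with DAF-mut9 (-1.54 ± 0.25, adjusted p = 0.00104), and none of its groups overlapped. The integrin genes ITGA3 (-1.46 ± 0.25, adjusted p = 0.00278), ITGAV (-1.21 ± 0.25, adjusted p = 0.00941) and ITGB3 (-1.80 ± 0.38, adjusted p = 0.00942) and the adhesion gene L1CAM (-1.44 ± 0.25, adjusted p = 0.0023) were negative, as were the collagen genes COL4A1 (-1.17 ± 0.26, adjusted p = 0.0183) and COL5A1 (-1.02 ± 0.22, adjusted p = 0.0111). In the ComBat-adjusted values limma did not call ITGA3 (adjusted p = 0.68). ITGB3 lost its call without WT-EF replicate 2 (0.0512) and had a positive difference of differences on the linear scale, 2.21 CPM. ITGAV, COL5A1 and COL4A1 lost theirs in 3, 4 and 7 of 12 fits (up to 0.0634, 0.0763 and 0.1).

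TGF-beta signals through SMAD proteins to raise matrix genes. Of 42 tested genes of the TGF-beta and BMP pathway, 5 were negative and 1 positive (median -0.44). The ligand gene TGFB1 had 25.9, 17.6 and 19.8 CPM with WT-EF, 40.4, 37.4 and 36.4 with mut9, 54.6, 52.6 and 45.6 with DAF, and 41.2, 39.5 and 36.8 with DAF-mut9 (-1.24 ± 0.17, adjusted p = 0.00014). WT-EF lay below and DAF above the other forms. The ligand gene TGFB3 (-1.47 ± 0.33, adjusted p = 0.019), the mediator SMAD3 (-1.52 ± 0.31, adjusted p = 0.0116) and the co-receptor ENG (-1.03 ± 0.21, adjusted p = 0.00503) were negative, of which TGFB3 and SMAD3 lost the call in 7 and 3 of 12 fits (up to 0.0934 and 0.0624). No interaction was called for TGFBR2, a receptor of TGF-beta (-0.74 ± 0.26, adjusted p = 0.151), or for LOX, which crosslinks collagen (-0.71 ± 0.43, adjusted p = 0.512). With no filter on low counts edgeR called both (TGFBR2 adjusted p = 0.00206, LOX adjusted p = 0.00325), and TGFBR2 was also called in the fit to the 12 libraries alone (adjusted p = 0.00119) and by limma on ComBat-adjusted values (adjusted p = 0.0167). CDKN1A, a cell cycle inhibitor listed as a repressed target, was negative (-1.81 ± 0.32, adjusted p = 0.00548).

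IGFBP3, which binds and restrains IGF, had 532, 259 and 267 CPM with WT-EF, 1718, 1288 and 2214 with mut9, 5519, 4506 and 3566 with DAF, and 6779.6, 7489 and 6267 with DAF-mut9. All 4 groups were apart, in the order WT-EF, mut9, DAF and DAF-mut9. Its interaction was negative on the log2 scale (-1.74 ± 0.38, adjusted p = 0.0225), but the difference of differences on the linear scale was 927 CPM, of the opposite sign. The call was lost in 7 of 12 fits (up to 0.0945) and in the fit to the 12 libraries alone (adjusted p = 0.0736). IGFBP7, a related secreted protein, was also negative (-1.83 ± 0.36, adjusted p = 0.0112). It was not called without WT-EF replicate 2 (0.0512) or by limma on ComBat-adjusted values (adjusted p = 0.42).

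ETS factors drive endothelial genes in normal tissue, and FLI1 belongs to that family. Of 38 tested genes of an endothelial ETS list, 10 were negative and 0 positive (median -0.923). S1PR1, a receptor for sphingosine phosphate, had 0.817, 1.31 and 2.16 CPM with WT-EF, 1.64, 2.04 and 2.97 with mut9, 8.896, 22.3 and 19.01 with DAF, and 3.98, 5.49 and 5.39 with DAF-mut9 (-2.37 ± 0.42, adjusted p = 0.00238). WT-EF and mut9 overlapped at the bottom, and DAF was above DAF-mut9. CD93, an endothelial surface glycoprotein, was also negative (-3.43 ± 0.64, adjusted p = 0.00838), as was ECSCR (-1.56 ± 0.37, adjusted p = 0.0251, lost in 10 of 12 fits, up to 0.106). Outside that list, KCNK3, a potassium leak channel, ranged over 0.411 to 0.688 CPM with WT-EF, 1.78 to 1.94 with mut9, 9.07 to 13.5 with DAF, and 6.08 to 9.38 with DAF-mut9 (-2.40 ± 0.39, adjusted p = 0.000715), and NTN4, a netrin of basement membranes, over 12.5 to 14.7 CPM with WT-EF, 40.2 to 51.9 with mut9, 152 to 214 with DAF, and 129 to 161 with DAF-mut9 (-1.93 ± 0.24, adjusted p = 9.36e-05). In both, WT-EF and mut9 were apart from each other and below the substituted forms. S1PR1 lost its call without the replicate block (adjusted p = 0.119), and S1PR1 and KCNK3 lost it with limma on ComBat-adjusted values (adjusted p = 0.0587 and adjusted p = 0.162).

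A second kind of negative gene fell most, or only, when the shortened form was substituted. NR0B1, a nuclear receptor gene at chrX:30322323-30327507 (GRCh37) and a classic activated target, had 60.05, 52.996 and 44.3 CPM in iLuc and 10.9, 23.2 and 14.9 in iEF. The rescued cells had 25.6, 29.2 and 30.6 CPM with WT-EF, 56.6, 41.7 and 41.1 with mut9, 19.9, 37.95 and 24.1 with DAF, and 5.495, 7.11 and 10.4 with DAF-mut9. WT-EF and DAF overlapped, mut9 lay above them and DAF-mut9 below them. DAF differed from WT-EF by -0.10 (adjusted p = 0.864) and DAF-mut9 from mut9 by -2.62 (adjusted p = 7.81e-05), an interaction of -2.52 ± 0.44, adjusted p = 0.00541 that kept its call without each library in turn (up to 0.0303).

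Of 29 tested genes listed as activated targets of the fusion, 7 were negative and 0 positive, with a median of 0.0262. FCGRT, a receptor that recycles antibodies, had 38.2, 43.2 and 57.6 CPM with WT-EF, 55.1, 89.1 and 45.6 with mut9, 32.4, 37.5 and 39.2 with DAF, and 9.78, 10.6 and 10.5 with DAF-mut9 (-2.25 ± 0.24, adjusted p = 9.01e-06). NPY1R, a neuropeptide Y receptor, had 27.8, 24.02 and 33.6 CPM with WT-EF, 56.4, 67.6 and 35.4 with mut9, 26.03, 29.8 and 29.1 with DAF, and 9.89, 11.5 and 12.4 with DAF-mut9 (-2.26 ± 0.36, adjusted p = 0.00213). In both genes WT-EF overlapped with DAF, and DAF-mut9 stood alone at the bottom. PRKCB, a protein kinase C, had 262, 253 and 254 CPM with WT-EF, 301, 412 and 219 with mut9, 128, 164 and 123 with DAF, and 36.1, 40.8 and 41.9 with DAF-mut9 (-2.06 ± 0.27, adjusted p = 0.000271). It fell in both forms, and DAF-mut9 was again apart and lowest.

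The developmental factor PAX7 (-1.78 ± 0.40, adjusted p = 0.0206), the surface protein STEAP1 (-0.82 ± 0.22, adjusted p = 0.0454) and the kinase JAK1 (-0.67 ± 0.13, adjusted p = 0.00548) were the other negative genes of that list, of which STEAP1 and JAK1 were named after their values were seen. STEAP1 lost its call in 11 of 12 fits without a library (up to 0.202), with RLE (adjusted p = 0.0586), with library totals (adjusted p = 0.0734), with edgeR's filterByExpr (adjusted p = 0.0547) and without robust shrinkage (adjusted p = 0.0503), and JAK1 without the replicate block (adjusted p = 0.0502). PAX7 lost its call in 7 of 12 fits (up to 0.0686). NKX2-2, a homeobox factor activated by the fusion, had no called interaction (0.23 ± 0.36, adjusted p = 0.857) and ranged over 3.46 to 3.85 CPM with WT-EF, 1.57 to 4.05 with mut9, 1.501 to 2.38 with DAF, and 1.23 to 2.09 with DAF-mut9. Over the whole list DAF was below WT-EF in 22 of 29 genes and DAF-mut9 below mut9 in 20, with 0 higher in either form. Over all genes tested, 10.5% were lower and 14.2% higher in the full-length form. In the shortened form 4.65% were lower and 4.91% higher.

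Growth and metabolic genes outside the list had the same pattern. They were chosen for it after values were seen, and IGF1 was also named from the IGF list. IGF1, the growth factor, had 40.1, 32.2 and 25.5 CPM in iLuc and 2.89, 6.63 and 3.94 in iEF, and 72.3, 81.9 and 70.6 CPM with WT-EF, 108, 144 and 91.2 with mut9, 21.7, 24.8 and 27.6 with DAF, and 3.49, 5.103 and 6.39 with DAF-mut9 (-2.91 ± 0.35, adjusted p = 0.000211). All 4 rescued groups were apart, with DAF-mut9 lowest. PHOSPHO1, a phosphatase of bone mineralisation, had 23.9, 32.1 and 32.8 CPM with WT-EF, 30.01, 34.9 and 34.96 with mut9, 20.7, 19.5 and 21.2 with DAF, and 3.49, 4.4998 and 3.38 with DAF-mut9 (-2.61 ± 0.24, adjusted p = 8.69e-07). WT-EF and mut9 overlapped, DAF lay below them, and DAF-mut9 was apart and lowest. The peptidase gene TRHDE (-2.30 ± 0.25, adjusted p = 8.61e-06), the peptide hormone gene APELA (-2.70 ± 0.44, adjusted p = 0.00208), the Wnt agonist gene RSPO2 (-2.55 ± 0.34, adjusted p = 0.000106) and TNFAIP6, a hyaluronan-binding protein (-2.28 ± 0.27, adjusted p = 6.96e-05), also had their lowest mean of the 4 forms with DAF-mut9. IGF1 and APELA lost their calls with limma on ComBat-adjusted values (adjusted p = 0.186 and adjusted p = 0.305). IGF1 and TRHDE overlap antisense genes.

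**Figure D3:**
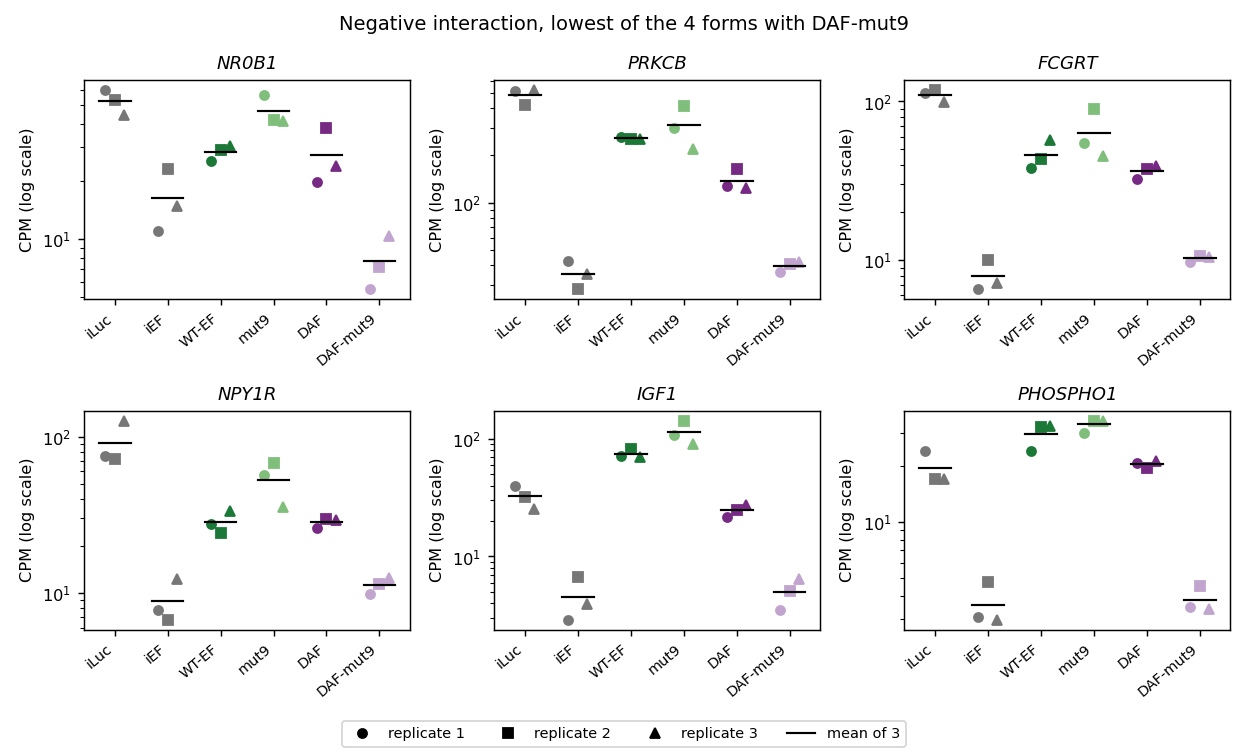
CPM on a log scale in each library of 6 groups for 6 genes with a negative interaction; symbols mark replicates and bars the mean of 3. In every panel the DAF-mut9 libraries are the lowest of the rescued groups, and for NR0B1, FCGRT and NPY1R no difference was called between DAF and WT-EF.

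In 40 negative genes the substitution raised mRNA in the full-length form and lowered it in the shortened form. MMP9, a gelatinase at chr20:44637547-44645200 (GRCh37), had 1.42, 1.45 and 0.982 CPM with WT-EF, 43.4, 25.3 and 44.7 with mut9, 55.5, 248 and 85.5 with DAF, and 3.595, 8.97 and 7.81 with DAF-mut9. The 4 groups were apart, in the order WT-EF, DAF-mut9, mut9 and DAF. The differences were 6.48 in the full-length and -2.63 in the shortened form, an interaction of -9.11 ± 1.00, adjusted p = 0.000283. SLC12A5-AS1 overlaps MMP9 on the other strand, and the strand setting of the counting was not given in the sources used here, so reads from both cannot be told apart.

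JAK3, a kinase of receptors that use the common gamma chain, had 4.32, 3.798 and 2.01 CPM with WT-EF, 17.2, 16.2 and 13.8 with mut9, 11.7, 11.004 and 12.9 with DAF, and 5.08, 4.36 and 5.14 with DAF-mut9 (-3.54 ± 0.35, adjusted p = 2.09e-06). IL2RG, the gene for that chain, had 3.03, 2.95 and 1.92 CPM with WT-EF, 9.92, 4.93 and 6.89 with mut9, 5.403, 15.4 and 6.72 with DAF, and 1.13, 2.11 and 2.57 with DAF-mut9 (-3.72 ± 0.58, adjusted p = 0.0016). In both genes the WT-EF and DAF-mut9 libraries were low and the mut9 and DAF libraries high. COL8A1, a short-chain collagen, had 44.5, 27.2 and 34.2 CPM with WT-EF, 123, 104 and 124 with mut9, 92.6, 77.6 and 84.997 with DAF, and 51.6, 51.3 and 48.6 with DAF-mut9 (-2.49 ± 0.22, adjusted p = 5.28e-07). Its 4 groups were apart in the same order as in JAK3. The insulin receptor gene INSR (-1.43 ± 0.18, adjusted p = 4.29e-05), the lipopolysaccharide co-receptor gene LY96 (-1.75 ± 0.25, adjusted p = 0.00018) and the oxysterol hydroxylase gene CYP7B1 (-1.71 ± 0.37, adjusted p = 0.0105) crossed in the same way. CYP7B1 lost its call without WT-EF replicate 2 (0.0647) and without mut9 replicate 1 (0.0638). JAK3, IL2RG, LY96 and CYP7B1 were named for their pattern after values were seen, INSR from the IGF list and COL8A1 from the collagen list.

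Positive genes were mostly lowered by substitution in the full-length form. In 103 of 155 (66.5%) DAF was below WT-EF and no difference was called in the shortened form, and in 28 (18.1%) both forms fell, with medians of -2.1 and -1.02. The iLuc mean lay above the iEF mean in 93 of the 103 and in 28 of 28, which was not counted over all genes that substitution lowered. CALCB, a calcitonin gene-related peptide gene at chr11:14926543-15103888 (GRCh37), had 42.6, 36.3 and 40.9 CPM with WT-EF, 5.16, 5.18 and 3.897 with mut9, 1.69, 1.296 and 1.69 with DAF, and 1.08, 1.56 and 1.45 with DAF-mut9. WT-EF was far above the other forms, mut9 was next, and the substituted forms overlapped. The differences were -4.68 in the full-length and -1.79 in the shortened form (2.89 ± 0.33, adjusted p = 1.01e-05). CALCB shares bases with CALCP on the same strand, so its counts are uncertain. Its call was lost with limma on ComBat-adjusted values (adjusted p = 0.15).

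GDF6, a BMP ligand of skeletal development, had 198, 218 and 171 CPM with WT-EF, 80.7, 108 and 73.1 with mut9, 35.6, 20.3 and 27.4 with DAF, and 38.7, 40.5 and 42.003 with DAF-mut9 (1.70 ± 0.27, adjusted p = 0.00111). LMO3, a transcriptional cofactor, had 31.1, 33.5 and 24.4 CPM with WT-EF, 9.71, 15.2 and 8.26 with mut9, 4.04, 2.502 and 4.85 with DAF, and 6.88, 5.51 and 4.61 with DAF-mut9 (1.98 ± 0.36, adjusted p = 0.00345). In both, WT-EF was highest and mut9 next, and DAF-mut9 overlapped with DAF in LMO3 and lay above it in GDF6. POU1F1, a pituitary transcription factor, had 13.5, 29.4 and 23.4 CPM with WT-EF, 3.12, 4.69 and 6.43 with mut9, 1.04, 1.42 and 2.63 with DAF, and 2.003, 1.65 and 4.02 with DAF-mut9 (2.82 ± 0.60, adjusted p = 0.0209), and lost its call in 6 of 12 fits (up to 0.0717). TMEM100, a membrane protein of endothelium, had 16.2, 20.7 and 15.3 CPM with WT-EF, 6.17, 9.99 and 5.67 with mut9, 4.53, 5.64 and 5.91 with DAF, and 9.296, 10.3 and 9.66 with DAF-mut9 (2.15 ± 0.26, adjusted p = 2.57e-05). WT-EF was apart and highest, and DAF-mut9 was above DAF.

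SLAIN1, a microtubule plus-end protein, had 465, 427 and 449 CPM with WT-EF, 250.2, 284 and 233 with mut9, 119, 127 and 125 with DAF, and 183, 196 and 179 with DAF-mut9 (1.39 ± 0.15, adjusted p = 5.27e-06), and STAMBPL1, a deubiquitinase, had 62.1, 67.004 and 70.2 CPM with WT-EF, 27.9, 31.004 and 31.6 with mut9, 16.2, 13.4 and 18.2 with DAF, and 21.5, 20.96 and 24.6 with DAF-mut9 (1.63 ± 0.19, adjusted p = 1.63e-05). In both genes all 4 groups were apart, rising from DAF through DAF-mut9 and mut9 to WT-EF. The calcium sensor gene VSNL1 (2.03 ± 0.42, adjusted p = 0.00802), the protease gene PRSS12 (1.94 ± 0.29, adjusted p = 0.00031), the zinc finger gene ZNF792 (1.88 ± 0.39, adjusted p = 0.00932) and the cohesion gene DSCC1 (1.62 ± 0.28, adjusted p = 0.00197) were positive and kept their calls without each library in turn. Without the replicate block VSNL1 (adjusted p = 0.0614) and PRSS12 (adjusted p = 0.0566) lost theirs. The synaptotagmin-like gene SYTL5 (1.63 ± 0.41, adjusted p = 0.0454) lost its call in 9 of 12 fits (up to 0.126).

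Signalling and developmental lists held further called genes. Of 33 tested genes of FGF and MAPK feedback, 0 were negative and 2 positive in edgeR, and DESeq2 called 2 and 2. The list's median was -0.246, with 22 of its 33 values below 0. At an unadjusted p below 0.05 it held 8 negative and 6 positive genes, against 4353 of all 30549 genes tested in either direction. IL17RD, an inhibitor of FGF signalling, had 11.9, 19.7 and 14.5 CPM with WT-EF, 5.02, 6.87 and 7.096 with mut9, 4.15, 2.95 and 3.56 with DAF, and 10.02, 6.69 and 7.48 with DAF-mut9 (2.45 ± 0.52, adjusted p = 0.0183, lost in 4 of 12 fits, up to 0.0659). WT-EF was highest and DAF lowest, without overlap with the other forms. Of 43 genes for neuropeptides, hormones and receptors, 4 were negative and 4 positive, among them GRP, the gastrin-releasing peptide gene (1.37 ± 0.30, adjusted p = 0.0115, lost without DAF-mut9 replicate 1 (0.0514)), and on the negative side GAL, the galanin gene (-2.54 ± 0.56, adjusted p = 0.0218, lost in 7 of 12 fits, up to 0.0979). Of 46 neural and developmental transcription factors 2 were negative (4.35%) and 3 positive (6.52%), and of 42 mesenchymal ones 3 (7.14%) and 2 (4.76%). Over all genes tested the shares were 2.58% and 0.507%. Such few calls are given for the genes and not as a trait of these lists. EBF3, a helix-loop-helix factor, had 114, 128 and 128 CPM with WT-EF, 51.05, 67.8 and 61.3 with mut9, 27.5, 23.4 and 31.5 with DAF, and 28.6, 28.3 and 31.9 with DAF-mut9 (1.15 ± 0.19, adjusted p = 0.000974). WT-EF was highest and mut9 next, and the substituted forms overlapped. ROR2, a Wnt receptor, was positive as well (1.36 ± 0.28, adjusted p = 0.00596). Of 42 tested Wnt modulators and targets, 2 were negative and 1 positive. The negative ones were RSPO3 (-2.82 ± 0.61, adjusted p = 0.0214, lost in 7 of 12 fits, up to 0.0797) and APCDD1 (-1.24 ± 0.21, adjusted p = 0.00102). Limma on ComBat-adjusted values did not call APCDD1 (adjusted p = 0.171).

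In 18 positive genes (11.6%) only the shortened form was called, and it rose, and in 4 (2.58%) it rose while the full-length form fell. GLI2, a Hedgehog transcription factor at chr2:121493199-121750229 (GRCh37), had 10.8, 12.1 and 14.6 CPM with WT-EF, 6.24, 6.95 and 9.98 with mut9, 10.9, 5.43 and 9.26 with DAF, and 14.4, 13.1 and 14.7 with DAF-mut9. mut9 was below DAF-mut9 and WT-EF in every library, while WT-EF overlapped with both substituted forms. The differences were -0.59 in the full-length and 0.87 in the shortened form (1.46 ± 0.26, adjusted p = 0.00179). ABTB3 had 29.2, 16.6 and 28.7 CPM with WT-EF, 17.96, 15.1 and 25.1 with mut9, 28.7, 17.7 and 23.1 with DAF, and 57.9, 52.4 and 48.6 with DAF-mut9 (1.57 ± 0.24, adjusted p = 0.000567), and CTSC, a lysosomal peptidase, had 59.4, 73.7 and 74.1 CPM with WT-EF, 47.6, 47.7 and 42.1 with mut9, 51.7, 61.9 and 64.1 with DAF, and 85.5, 80.6 and 93.1 with DAF-mut9 (1.14 ± 0.18, adjusted p = 0.0007). In both, DAF-mut9 stood alone above the other rescued groups. SERTAD4 (1.51 ± 0.27, adjusted p = 0.00225), the Rac exchange factor gene PREX1 (1.22 ± 0.21, adjusted p = 0.00118) and the death receptor gene TNFRSF21 (1.10 ± 0.18, adjusted p = 0.0007) shared these patterns, for which they were chosen after values were seen, and all 6 kept their calls without each library in turn.

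**Figure D4:**
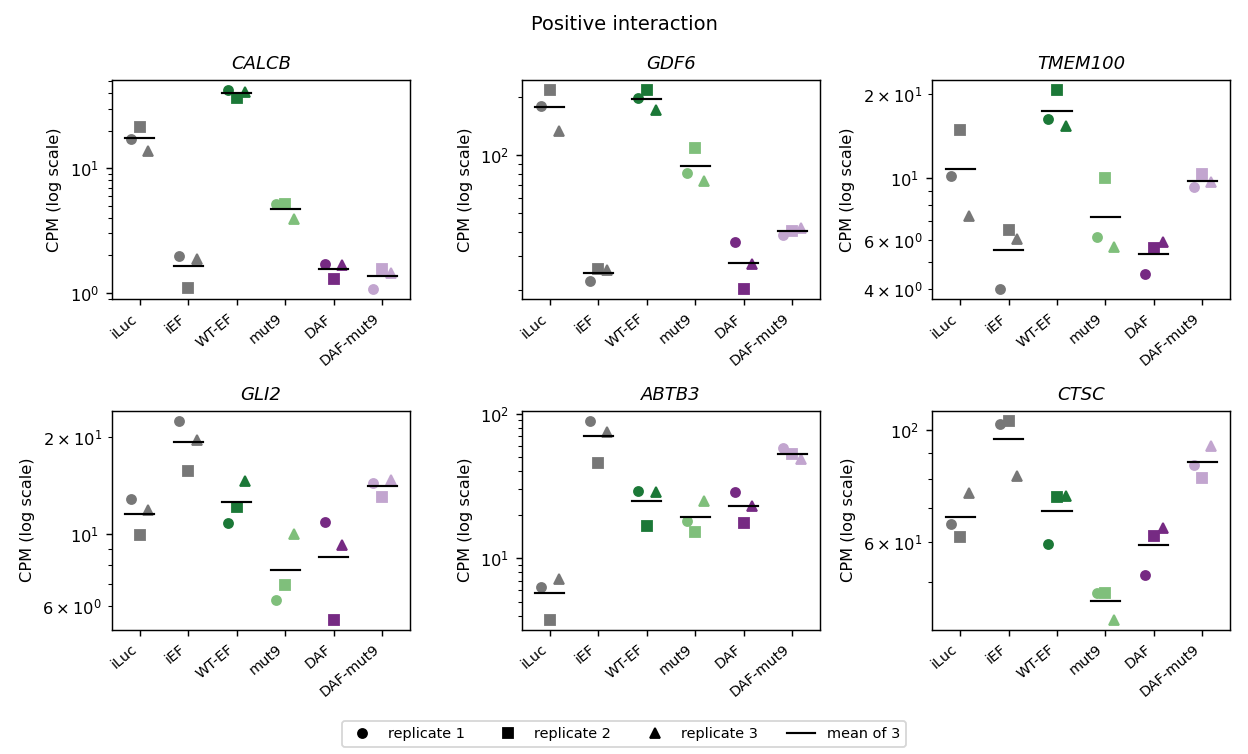
CPM on a log scale in each library of 6 groups for 6 genes with a positive interaction; symbols mark replicates and bars the mean of 3. For CALCB, GDF6 and TMEM100 the WT-EF libraries are the highest of the rescued groups, and for ABTB3 and CTSC the DAF-mut9 libraries are.

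Several lists of general cell functions held 0 called genes in edgeR with TMM scaling. These were 59 genes of DNA replication and mitosis, 37 of ribosome biogenesis, 49 BAF, NuRD and polycomb subunits, 34 of serine and amino acid metabolism and ATF4, 28 HOX genes and 19 glucocorticoid targets. With 3.09% called over all genes tested, lists of these sizes would hold few calls. The 0 called is therefore near that share and does not show that these lists were spared. At an unadjusted p below 0.05 they held 24, 1, 7, 2, 5 and 4 genes in that order, against 4353 of all 30549 genes tested. DESeq2 called 2 of the replication genes, 1 ribosome gene, 1 chromatin gene and 1 HOX gene, all positive, and 0 in the other lists. Scaled by library totals edgeR called 1 of the replication genes and 1 ribosome gene, both positive, and 0 in the other 4 lists. All 59 replication and mitosis genes had a fitted interaction above 0 with TMM, RLE and library totals (median 0.471), and 31 were lower with DAF than with WT-EF against 1 lower with DAF-mut9 than with mut9. Over all genes tested, 10.5% were lower in the full-length and 4.65% in the shortened form. Genes of such a list vary together and are not independent measurements.

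**Figure D5:**
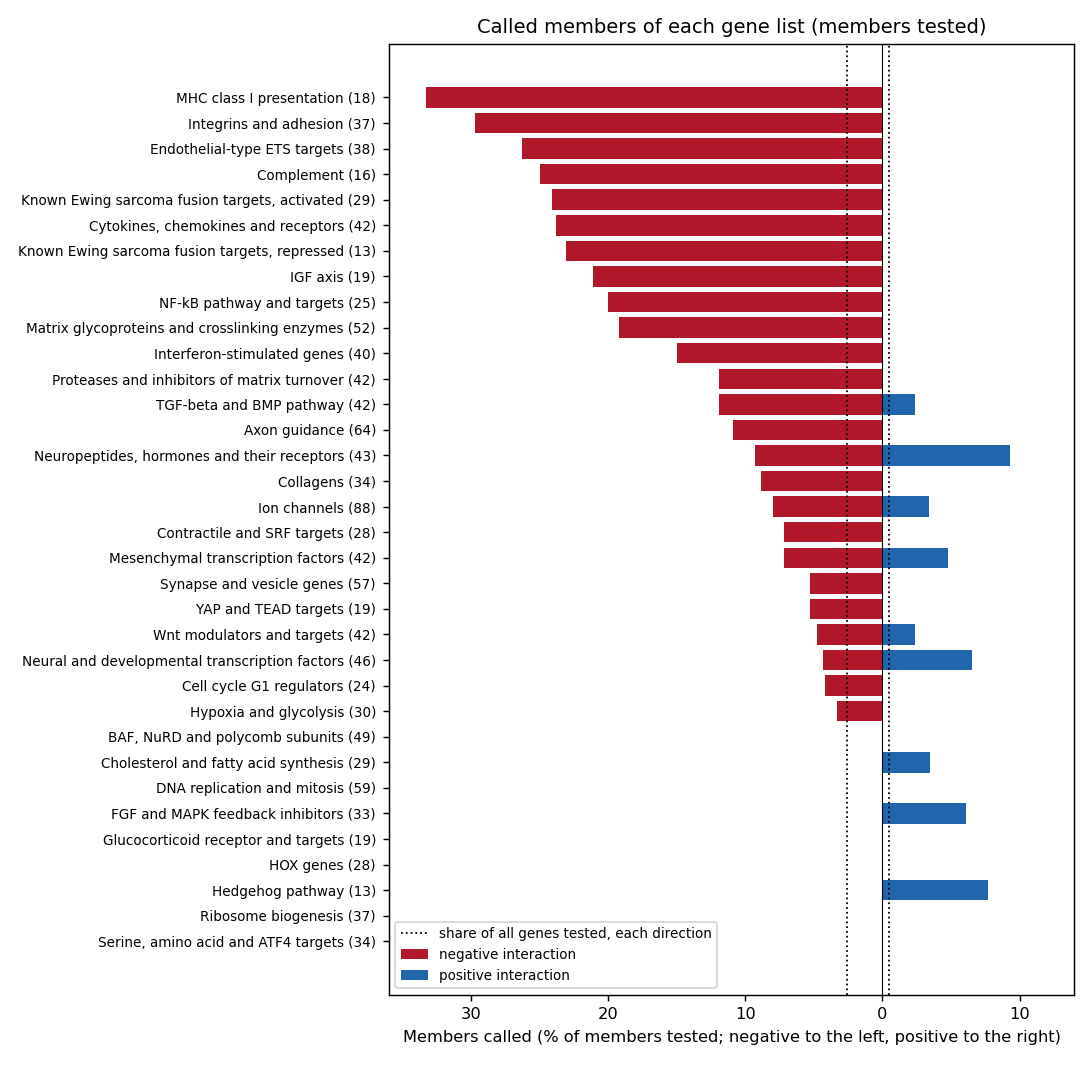
Bars give the percentage of tested members, in each list other than the 2 lists of cell markers, with a negative (left) or positive (right) interaction, and dotted lines the 2.58% and 0.507% over all genes tested. MHC class I genes (33.3%) and integrin and adhesion genes (29.7%) have the longest negative bars, and neuropeptide and hormone genes (9.3%) the longest positive bar.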

How the data were processed

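Libraries were made by the authors from total RNA with the ScriptSeq kit. Per the submitters' processing notes, reads were aligned with STAR 2.5.1b to hg19 and counted per gene with HTSeq. The deposited table holds raw counts of reads per gene for 57820 genes. The authors adjusted replicate sets with ComBat before DESeq2; the main tests here used the raw counts, and the deposited ComBat-adjusted signal, which the authors made from these counts, entered only a limma alternative. The deposited columns of the authors' own fold changes and adjusted p-values were not used. Strand setting and annotation release of the counting were not given in the sources used here. Of 118 named genes with a called interaction 42 share exon bases with a gene on the other strand, and 12 named genes do so on the same strand, so their counts may hold reads of both.

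The 30549 genes that averaged 1 count or more over the libraries were tested with edgeR 4.0.16 in R 4.3.3 (TMM, robust quasi-likelihood, two-sided, Benjamini-Hochberg adjustment). The model had a term for each of 7 groups, del22 among them, and a replicate block, because the study adjusted for replicate sets. It was fitted to all 21 libraries, so the groups share 1 estimate of the spread. CPM values use TMM-scaled library sizes. DESeq2 1.42.0, limma 3.58.1 and other settings were alternatives, 1 of them, the fit without robust shrinkage, chosen after seeing the data. The fit was tested on simulated data.

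Named genes were the 12 with the largest absolute interaction in each direction (at least 5 CPM on average, the same sign in 3 sets), up to 4 called members of each list with at least 3 called, FLI1, EWSR1 and known targets, then genes chosen for their pattern after values were seen. The members and lists were chosen with earlier results of these data known. Promoter windows are from RefSeq (GRCh38.p14), gene positions from GRCh37.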

Additional observations from a re-analysis of the deposited data

Results flagged for a closer look

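An interaction is by its construction a difference between the effects of 1 change in 2 settings, and each gene with an edgeR adjusted p below 0.05 is a case of it. There were 788 such genes with a negative and 155 with a positive interaction, and in 44 the called effects of the full-length and the shortened form had opposite signs.

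Among the largest negative log2 interactions were those of MMP9 (-9.11), CXCL9 (-6.61), SERPINB4 (-5.96), CCL2 (-5.13), IL4I1 (-5.00), CXCL10 (-4.96), IDO1 (-4.75), APOL3 (-4.63), NNMT (-4.31), C2CD4A (-4.27), C1S (-4.23) and ICAM1 (-4.19). The value of CXCL9 depends on the prior count, since WT-EF had at most 2 counts. Among the largest positive ones were CALCB (2.89), POU1F1 (2.82), IL17RD (2.45), TMEM100 (2.15), VSNL1 (2.03), LMO3 (1.98), PRSS12 (1.94), ZNF792 (1.88), GDF6 (1.70), STAMBPL1 (1.63), SYTL5 (1.63) and DSCC1 (1.62). Opposite effects in the 2 forms were called for IL2RG (-3.72), JAK3 (-3.54), COL8A1 (-2.49), LY96 (-1.75), CYP7B1 (-1.71), INSR (-1.43), GLI2 (1.46), PREX1 (1.22) and TNFRSF21 (1.10).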

How the results depend on the processing

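No direction of a called, named gene reversed in any alternative fit, and 50 of the 118 kept their call in all of them, while 66 kept it in every fit without 1 library. Against 943 interaction genes (788 negative, 155 positive), DESeq2 with the replicate block called 1613 (1208 and 405), no filter on low counts 2007 (1580 and 427) and a fit to the 12 libraries alone 2290 (1667 and 623, with 4535 genes for DAF-mut9 minus mut9 against 2923). The cause of these rises was not tested. The fit to the 12 libraries alone kept 875 of the 943 calls. Besides losses given above it lost, among others, IL4I1 (adjusted p = 0.0855), SMAD3 (0.0702), PAX7 (0.06825), GRP (0.0717) and SYTL5 (0.157). Limma on ComBat-adjusted values did not call GRP (adjusted p = 0.314) or POU1F1 (adjusted p = 0.338). Library totals gave 288 positive genes, and an absolute log2 interaction of at least 1 left 97. Without the replicate block 636 genes were called, 89 of them positive, and 631 were among the 943. Deviations of same-numbered libraries correlated at -0.171 to 0.652 (median 0.171, against -0.0941 for other numbers). All 3 pairs were above 0.1 between WT-EF and mut9 and between DAF and DAF-mut9, and not all were between the other groups.

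Leaving out each library in turn gave 407 to 1102 interaction genes, 332 to 938 negative and 63 to 174 positive, 5430 to 7444 genes for DAF minus WT-EF and 1726 to 2914 for DAF-mut9 minus mut9. The lowest positive count was without DAF-mut9 replicate 1, and the lowest for DAF-mut9 minus mut9 without mut9 replicate 2, with 1780 without DAF-mut9 replicate 2. On the linear CPM scale the negative interactions of 4 named genes were positive, IGFBP3 (927.2), DLG2 (31.35), APCDD1 (10.13) and ITGB3 (2.214). The uncalled EWSR1 was above 0 with library totals (0.085856), with filterByExpr (0.0065476) and in 5 fits without a WT-EF, DAF or mut9 library, with a range of -0.059626 to 0.029545 over all fits without a library. With 200 genes changed in simulated DAF-mut9 libraries alone, 26.5% of 2-fold and 71.5% of 4-fold interactions were recovered, and 11.7% and 7.14% of the calls were false.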
